A study of Mus musculus with 6 samples.

Results

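The DEAD and DEAH box RNA helicases were examined in mouse podocytes transduced with a hairpin that targets Tug1, a long noncoding RNA. The members were the gene probes whose RefSeq transcript accession belongs to a mouse gene with a symbol of Ddx or Dhx followed by a number. This gave 67 of the 39429 gene probes on the array, for 51 genes (35 Ddx and 16 Dhx genes) out of 20659 symbols. Symbols alone chose the members, and no intensity entered the rule. The family was put forward with earlier results of these arrays known, so its counts of calls are a description. Of the 53 such genes in the RefSeq table, Ddx46 and Ddx60 had no matched probe and were not analysed here.

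The cells were podocytes, which form the outer filter layer around kidney glomerular capillaries, immortalised with a temperature-sensitive SV40 T antigen. All cells were grown at 33 °C, then moved to 37 °C and differentiated for 10 days, and all carried a lentiviral pGIPZ vector. The 3 groups of 2 arrays were shControl, with a scrambled hairpin, and shTug1 clone 2 and shTug1 clone 3, lines with a hairpin against Tug1. Each group labelled shTug1 is 1 clone, so a value of a group is also a value of that line. The labels number the 2 arrays of a group as replicates without saying that they came from separate cultures, so p-values measure only the spread between these samples, which may be technical.

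DEAD and DEAH box proteins bind RNA and use ATP to unwind short duplexes or to strip proteins from it, and are named after a conserved stretch of amino acids in their ATPase core. Different members drive the steps of splicing, carry messengers through the nuclear pore, fold the RNA of the growing ribosome, open structured leaders for translation, or recognise viral RNA. Most are expressed in nearly every tissue, a few in the germ line only.

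Promoter windows of 300 bases from RefSeq (build GRCm38.p6) are shown for 3 members on which the results below turn: Ddx58, the RIG-I gene, which fell together with Dhx58, and Ddx19a and Ddx19b, neighbouring paralogues on chromosome 8 that moved in opposite directions. Each runs 5′ to 3′ on the gene's strand, minus for all 3, and spans the start site. The windows are chr4:40239776-40240075 for Ddx58, chr8:110997774-110998073 for Ddx19a and chr8:111031702-111032001 for Ddx19b, which has a second start with its own window. Capitals mark the core of the interferon-stimulated response element, searched on either strand as 2 copies of GAAA with any 2 bases between them.
Ddx58: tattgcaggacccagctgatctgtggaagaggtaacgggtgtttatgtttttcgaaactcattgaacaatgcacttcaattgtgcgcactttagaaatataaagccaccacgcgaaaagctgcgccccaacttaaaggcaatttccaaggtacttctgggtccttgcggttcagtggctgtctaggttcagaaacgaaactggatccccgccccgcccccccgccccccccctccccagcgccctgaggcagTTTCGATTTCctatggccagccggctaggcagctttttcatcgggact
Ddx19a: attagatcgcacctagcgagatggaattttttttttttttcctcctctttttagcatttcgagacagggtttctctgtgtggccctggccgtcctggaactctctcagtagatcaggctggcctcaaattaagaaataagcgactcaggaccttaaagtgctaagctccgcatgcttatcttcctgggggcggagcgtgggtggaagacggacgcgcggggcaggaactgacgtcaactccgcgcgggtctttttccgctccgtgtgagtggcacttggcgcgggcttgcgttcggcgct
Ddx19b: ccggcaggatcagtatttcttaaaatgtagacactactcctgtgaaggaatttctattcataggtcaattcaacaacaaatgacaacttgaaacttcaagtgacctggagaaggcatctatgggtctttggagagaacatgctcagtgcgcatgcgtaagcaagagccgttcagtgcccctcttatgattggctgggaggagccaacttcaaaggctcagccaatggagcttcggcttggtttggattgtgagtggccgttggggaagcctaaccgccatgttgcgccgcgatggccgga
The Ddx58 window held 1 match, read on the opposite strand and starting at position 253 of the window, and the Ddx19a and Ddx19b windows held 0. Over 56 windows of 45 members, 3 windows of 2 genes (Ddx49 and Ddx58) held this motif, or 5.36%, against 3.44% of all 32851 windows of the same length. The E-box CACGTG was in 7 of the 56 windows, or 12.5%, against 7.15% of all. A match to these letters is not a binding site.

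Values are log2 of the processed spot intensity minus the log2 of the 75th percentile of that array, so 0 means a signal equal to that percentile. A probe was kept when it was well above background, by the scanner software's mark, on both arrays of at least 1 group. Of the 67 member probes 60 were kept and 47 were well above background on all 6 arrays, giving 46 genes to test, 37 of them with a probe of that kind. Each gene is represented by its brightest kept probe. The other 5 genes were not tested: the messenger decay helicase gene Ddx6, the spliceosomal Ddx23 and Dhx9 (also known as RNA helicase A) were well above background on 1 of 6 arrays each, and the Y-linked Ddx3y and the germ line gene Ddx43 on 0. Such a probe gives only an upper bound, not a level of 0.

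The control arrays had a 75th percentile of 324.3 and 363.3 intensity units, the arrays labelled shTug1 one of 569.2 to 1055, and 58.2% to 68% of probes were well above background. The headers give both control arrays 1 scan time and the 4 arrays labelled shTug1 another, so a difference from shControl is also a difference between scans, and these cannot be told apart. Tug1 itself (brightest probe) read −2.88 and −2.49 in shControl, −1.86 and −1.88 in shTug1 clone 2 and −3.10 and −3.23 in shTug1 clone 3. Its log2 fold change was 0.81 (limma adjusted p = 0.0798) in clone 2 and −0.48 (adjusted p = 0.321) in clone 3, so no direction below is read as an effect of lower Tug1 and groups are called by their labels. Of 12 podocyte markers, 9 were well above background on all 6 arrays, while Podxl and Tcf21 were on 1 of 6. All 4 arrays labelled shTug1 lay below both controls for 43.1% of all genes tested and above both for 12.3%. Among the 12 podocyte markers, with a single probe counted per gene, 6 lay below both in this way and 0 above both. Synpo was among the 6, but its second probe, well above background on all 6 arrays, lay above both controls on all 4 arrays. The second Lmx1b probe lay below both, like the counted one. Their signals, as linear multiples of the array's own 75th percentile, summed to 117 to 127 in shControl and 61.4 to 66.4 on the arrays labelled shTug1, but most of that was Actn4, and without it the sums were 31.6 to 33 against 11 to 18.2. Of 6 mesangial and stromal markers 4 lay below both controls (Des and Pdgfra were well above background on no array), and the sum of 549 to 560 against 212 to 315 was nearly all Acta2, with 15 to 19.1 against 8.31 to 11 without it. For 5 endothelial markers the sums were 1.41 to 2.47 against 0.927 to 1.22 (2 genes below, 1 above, Emcn and Tek well above background on no array), and for 6 tubular and parietal markers 15.6 to 22.8 against 10.2 to 12.7 (3 below, 1 above, Slc12a1 on no array). The 4 immune markers with a probe summed to 1.46 to 3.57 against 0.812 to 1.62, and 0 of them lay apart from both controls. Beside the shares of all genes given above, nothing is read from the counts of markers below or above both controls. The part of cell makeup in the helicase values was not tested, and in such bulk samples fewer cells of a type and less RNA per cell cannot be told apart.

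The first comparison asked which helicase genes differ between the clones labelled shTug1, weighted equally, and shControl. Of 46 genes, 14 rose, 14 fell and the other 18 missed the threshold (limma adjusted p under 0.05, adjusted over all 21473 genes). Among the rises, Ddx50, Ddx47, Ddx10, Dhx15, Dhx38 and Ddx28 were kept only through the clones, and Ddx4 only through clone 2. Among the falls, Ddx25 was kept only through shControl. Among all genes tested 10.2% were called higher and 30.4% lower, or 40.6% in either direction, against 30.4%, 30.4% and 60.9% of the helicases. Since the family was chosen with results known, nothing is read from these shares. The counts of the role and partner lists below stand beside the same 10.2% and 30.4% of all genes, and nothing is read from them either. List counts after quantile normalization or without shControl replicate 1 belong to other fits, to which these 2 shares do not apply. Nothing is read from those counts. The median helicase gene had a log2 fold change of −0.30 and the median of all genes −0.64, and helicases ranged from −2.03 to 4.22. With no overlap between the groups, the 4 arrays labelled shTug1 lay above both control arrays for 14 of the 46 genes and below both for 18 (12.3% and 43.1% of all genes, 55.4% together). Relative to the median gene, the called falls ran from −0.26 (Ddx42) to −1.39 (Dhx58). After quantile normalization 12 rose and 5 fell, 17 in all, where 27.1% of all genes were called, and the median helicase gene was at 0.02 against −0.27 for all genes.

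**Figure D1:**
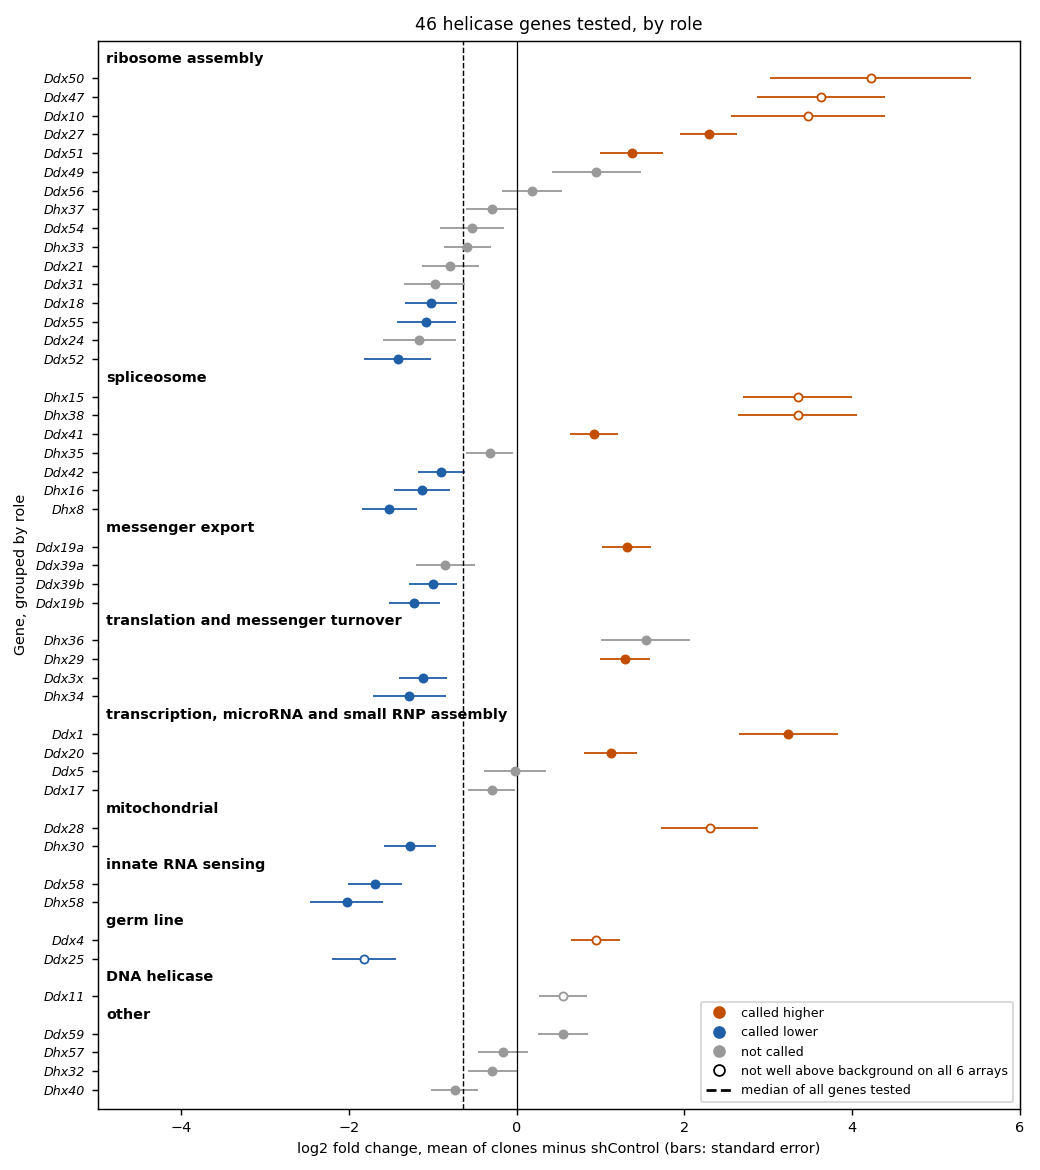
log2 fold change (mean of the clones labelled shTug1 minus shControl) of the 46 tested helicase genes, grouped by role, with the standard error as bars. Filled points were well above background on all 6 arrays, and the dashed line marks the median of all genes tested at −0.64; the values run from Dhx58 at −2.03 to Ddx50 at 4.22.

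The control arrays differed from each other more than the clone pairs did. The limma fit shares its spread per gene over all groups. Where the shControl pair is the wider, standard errors and p-values against shControl are too small, and those between the clones too large. With either control array left out, shControl has 1 array and no spread of its own, so the spread comes from the clone pairs alone. Passing in such a fit is therefore not read as support, and what is compared below is the size of the change. The gap between replicates was over 1 on the log2 scale for 17 of the 46 helicase genes in shControl, for 2 in shTug1 clone 2 and for 1 in shTug1 clone 3, with a median gap of 0.70, 0.21 and 0.24 (0.72, 0.22 and 0.24 over all genes). shControl replicate 2 lay between shControl replicate 1 and the clone mean for 33 of 46 helicases (71.7%, against 70.5% of all genes). Of the 14 genes that rose, 13 had the higher control value on replicate 2, and of the 14 that fell, 11 had the lower one there. Without shControl replicate 1 fewer calls were made, and the median helicase gene (−0.38) was within 0.01 of the median of all genes (−0.39). The part of whatever sets replicate 1 apart was not tested. Fewer calls were also made without any 1 of the arrays labelled shTug1, and without shTug1 clone 3 replicate 2 every helicase call ended. More were made without shControl replicate 2.

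**Figure D2:**
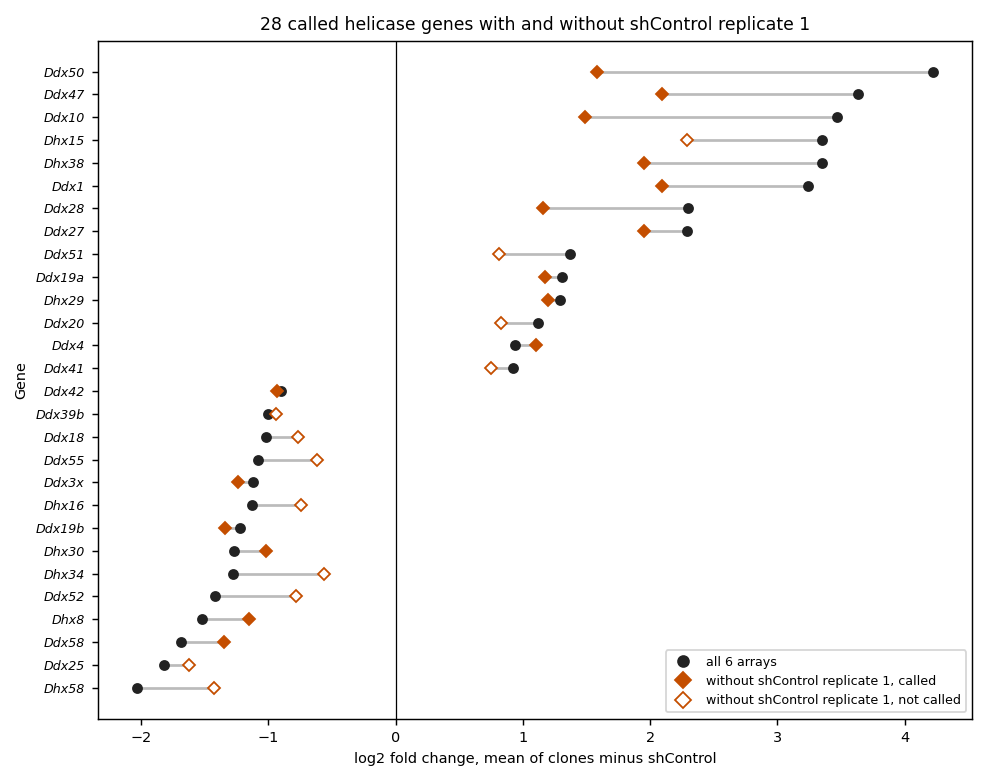
log2 fold change of the 28 called helicase genes with all 6 arrays (circles) and without shControl replicate 1 (diamonds, open where the call ended). Ddx50 moves from 4.22 to 1.58 and Ddx10 from 3.47 to 1.49, while Ddx27, Ddx19a, Dhx29, Ddx42, Ddx3x and Ddx19b stay near their place.

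Ribosome assembly helicases, which act on precursor ribosomal RNA in the nucleolus, made up 16 of the tested genes: 5 rose, 3 fell and 8 did not pass, with a median of −0.42 (−0.64 for all genes). The rises were those of Ddx50, a nucleolar paralogue of Ddx21, Ddx47 and Ddx10, both needed for ribosomal RNA processing, Ddx27 and Ddx51, which act on the large subunit's RNA. Ddx27 read −0.31 and 0.36 in shControl, 2.11 and 1.71 in clone 2, and 2.55 and 2.91 for clone 3. All 4 arrays labelled shTug1 lay above both controls, and clone 3 lay above clone 2 on every array. The log2 fold change was 2.29 (SE 0.34, adjusted p = 0.00962), and 1.95 without shControl replicate 1.

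Ddx50 read −6.25 and −0.96 in shControl, 1.02 and 0.99 in clone 2 and 0.16 and 0.32 in clone 3. Ddx47 read −4.51 and −1.43, then 1.14 and 0.67, then 0.06 and 0.79. Ddx10 read −6.23 and −2.27, then −0.49 and −0.18, then −1.13 and −1.31. In all of these shControl replicate 1 was not well above background and was 3.08 to 5.29 below replicate 2. The clones lay above both. With a single control array well above background, these genes were kept only through the clones, and the size of each rise is not exact. These genes had SDs of 3.74, 2.18 and 2.80 in shControl (n = 2) and of 0.02 to 0.51 in the clones, wider in shControl than the shared spread allows for. Their log2 fold changes of 4.22 (SE 1.20), 3.63 (SE 0.76) and 3.47 (SE 0.92) had adjusted p from 0.016 to 0.0298 and became 1.58, 2.09 and 1.49 without shControl replicate 1. After quantile normalization Ddx50 stood at 4.68 and Ddx10 at 3.87, larger than before, but neither passed (adjusted p = 0.078 and 0.0699). With normexp correction Ddx50, Ddx47 and Ddx10 passed at smaller sizes of 2.20, 2.24 and 1.24. Ddx51 read −1.69 and −0.57 in shControl, 0.24 and −0.03 in clone 2 and 0.49 and 0.27 in clone 3, a log2 fold change of 1.37 (adjusted p = 0.0275) that did not pass without shControl replicate 1 (0.81, adjusted p = 0.0617).

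The falls were those of Ddx52, of the small subunit pathway, and of Ddx18 and Ddx55, of the large subunit pathway. Ddx52 read 4.21 and 2.94 in shControl, 1.81 and 2.02 in clone 2 and 2.32 and 2.49 in clone 3, a log2 fold change of −1.42 (adjusted p = 0.029) that became −0.78 (adjusted p = 0.0591) without shControl replicate 1. Ddx18 (−1.02) and Ddx55 (−1.08) lay below both controls on all 4 arrays, and their calls too ended without that array (adjusted p = 0.0714 and 0.118). After quantile normalization Ddx52 (−0.82), Ddx18 (−0.25) and Ddx55 (−1.07) did not pass, with adjusted p of 0.0746, 0.354 and 0.0501. In the clone mean the helicases Ddx49 (0.95), Ddx56 (0.18), Dhx37 (−0.30), Ddx54 (−0.53), Dhx33 (−0.59), Ddx21 (−0.79), Ddx31 (−0.98) and Ddx24 (−1.16) did not pass. Ddx24, among the members with the highest control signal, read 7.50 and 5.96 in shControl, 5.09 and 5.09 in clone 2 and 6.09 and 6.01 in clone 3, so the groups overlapped.

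Of 26 other nucleolar ribosome assembly factors, 8 rose, 9 fell and the other 9 missed the threshold (11 and 1 after quantile normalization, 8 and 1 without shControl replicate 1), with a median of −0.34. The GTPase gene Bms1 was at least 7.36-fold and the endonuclease gene Nob1 at least 3.74-fold higher in the clones. Both were kept only through the clones, neither being well above background on either control array. The box H/ACA particle gene Nhp2 (−1.45, adjusted p = 0.0338) and Rrp1 (−1.38, adjusted p = 0.0338) were among the falls, and neither passed after quantile normalization or without shControl replicate 1.

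Spliceosomal helicases drive the rearrangements between the steps of splicing, and of the 7 tested 3 rose, 3 fell and 1 did not pass. Dhx38, which acts between the catalytic steps, read −6.31 and −3.51 in shControl, −0.89 and −1.38 in clone 2, with −2.40 and −1.58 in clone 3. The clones lay above both controls, of which only replicate 2 was well above background, and the log2 fold change was 3.35 (SE 0.71, adjusted p = 0.0164), 1.95 without replicate 1 and 1.00 with normexp correction. Ddx41 read −1.48 and −1.14, then −0.66 and −0.82, then 0.00 and −0.10, a small rise of 0.92 (adjusted p = 0.0398) that did not pass without shControl replicate 1 (adjusted p = 0.0582) or when replicate numbers were blocked (adjusted p = 0.0563).

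Dhx15, which takes the spent spliceosome apart, rose by 3.35 (SE 0.65, adjusted p = 0.0142) in the mean of the clones, with clone 2 well above clone 3. It read −6.30 and −4.18 in shControl, −0.35 and 0.95 in clone 2, with −4.55 and −3.61 in clone 3, where one array lay below shControl replicate 2. As shControl replicate 1 was not well above background, the sizes against shControl are not exact. Clone 2 alone was at 5.54 (adjusted p = 0.00672) and clone 3 alone at 1.16 (adjusted p = 0.289). Without shControl replicate 1 the mean stood at 2.29 (adjusted p = 0.0585), and with normexp correction at 1.30, past the test.

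Dhx8, which releases the spliced messenger, read 4.39 and 3.66 in shControl, 2.10 and 2.16 in clone 2 and 3.08 and 2.69 in clone 3. Every array labelled shTug1 was below both controls, and the log2 fold change was −1.52 (SE 0.33, adjusted p = 0.0172), or −1.15 without shControl replicate 1. After quantile normalization it was −0.87, past the test. Dhx16, which precedes the first catalytic step, read 4.41 and 3.64, then 2.42 and 2.62, then 3.39 and 3.13, and fell by 1.13 (adjusted p = 0.0328), a call that ended without shControl replicate 1 (−0.74, adjusted p = 0.0717) and after quantile normalization (−0.46, adjusted p = 0.141). Ddx42, a partner of the SF3b complex, fell by 0.90 (adjusted p = 0.0376), with shControl at 2.15 and 2.22 and the clones from 1.04 to 1.52. Its call ended after quantile normalization (−0.54, adjusted p = 0.0977), and Dhx35 (−0.32, adjusted p = 0.367) did not pass. Of 20 core spliceosome genes, 4 rose, 5 fell and the other 11 missed the threshold (4 and 2 after quantile normalization, 4 and 4 without shControl replicate 1). The ubiquitin ligase gene Prpf19 (3.34) and Syf2 (3.28), each detected on 1 of 2 control arrays, rose and the SF3b subunit gene Sf3b3 (−1.85) and Prpf8 (−1.40), of the catalytic centre, fell, Prpf8 not after quantile normalization. Of 15 G-patch genes, whose products activate DEAH helicases, 1 rose (Nkrf, 2.67, well above background on 1 of 2 control arrays), 4 fell, among them Cmtr1 (−1.48) and Sugp1 (−1.42), and 10 did not pass. After quantile normalization 2 rose and 1 fell, Nkrf passing and Cmtr1 and Sugp1 not, and without shControl replicate 1 0 rose and 3 fell, Cmtr1 passing and Nkrf and Sugp1 not.

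Helicases of messenger export went both ways: of 4 tested, Ddx19a rose, Ddx19b and Ddx39b fell and Ddx39a did not pass. The neighbouring genes Ddx19a and Ddx19b, whose promoter windows are printed above, encode closely related proteins that strip export factors from messengers at the nuclear pore. Ddx19a read −1.69 and −1.40 in shControl, −0.49 and −0.73 in clone 2 and 0.14 and 0.15 in clone 3, so its log2 fold change was 1.31 (SE 0.29, adjusted p = 0.0173) on its brightest probe. Its other probe was well above background in both clones and on neither control. Ddx19b read 1.61 and 1.84 in shControl, 0.59 and 0.87 in clone 2 and 0.43 and 0.11 in clone 3, so its log2 fold change was −1.22 (SE 0.30, adjusted p = 0.0205). For both genes the groups did not overlap and clone 3 lay farther from shControl than clone 2. The sizes were 1.17 and −1.34 without shControl replicate 1. After quantile normalization both calls remained (1.32 and −0.99). As the genes are close copies, a probe of one may also report some of the other.

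Ddx39b (the UAP56 gene, of splicing and the TREX export complex) read 6.15 and 6.04 in shControl, 4.96 and 4.83 in clone 2 and 5.51 and 5.08 in clone 3 on its brightest probe, and fell, with a log2 fold change of −1.0 (adjusted p = 0.033). The call ended after quantile normalization (−0.14, adjusted p = 0.688) and without shControl replicate 1 (−0.94, adjusted p = 0.0569). A further Ddx39b probe, well above background on 1 of 2 controls, went the other way by 2.92, from −4.54 and −3.27 in shControl to 0.12 and 0.35 in clone 2 and −2.78 and −1.63 in clone 3. Its close relative Ddx39a read 6.61 and 5.66, then 5.10 and 4.90, then 5.67 and 5.47, and did not pass (−0.85, adjusted p = 0.0853). Of 19 genes of the exon junction and export machinery, 3 rose, 1 fell and 15 did not pass, led by the decay factor genes Upf2 (2.50, detected on 1 of 2 controls) and Upf3b (2.41) and the export receptor gene Nxf1 (−1.81). Upf2 and Upf3b did not pass without shControl replicate 1, where 1 rose (Thoc3) and 1 fell (Nxf1).

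Of 4 tested helicases of translation and messenger turnover, 1 rose and 2 fell. Dhx29, which helps the small ribosomal subunit scan structured leaders, read −0.03 and 0.16 in shControl, 1.24 and 0.89 in clone 2, with 1.52 and 1.78 in clone 3. The groups did not overlap, and the log2 fold change was 1.29 (SE 0.30, adjusted p = 0.0184), 1.20 without shControl replicate 1 and 1.37 after quantile normalization. Dhx34, of nonsense-mediated decay, read 2.75 and 1.31, then 0.25 and 0.17, then 1.54 and 1.03, so that the groups overlapped. It fell by 1.28 (adjusted p = 0.0489), but was at −0.56 without shControl replicate 1 (adjusted p = 0.179) and did not pass after quantile normalization (−1.0, adjusted p = 0.0799). Ddx3x, a translation helicase, read 4.62 and 4.87 in shControl, 4.10 and 4.00 in clone 2 and 3.06 and 3.37 in clone 3 and fell by 1.12 (adjusted p = 0.0241), although not after quantile normalization (−0.33, adjusted p = 0.43). Its other probe stood at 0.66. The G-quadruplex resolvase gene Dhx36 (1.54, adjusted p = 0.0516) did not pass. In the P-body and decapping list, 4 of 15 genes were higher, 4 lower and the other 7 missed the threshold (3 and 3 after quantile normalization, 2 and 4 without shControl replicate 1). The decapping enhancer gene Edc3 was well above background on neither control and so kept only through the clones, where it was at least 2.17-fold higher. The deadenylase subunit gene Pan3 (−1.62) was the lowest of the falls.

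Of 4 tested helicases of transcription, microRNA processing and small nuclear particle assembly, Ddx1 and Ddx20 rose and Ddx5 and Ddx17 did not pass. Ddx1, a part of the transfer RNA ligase complex, read −1.90 and 0.39 in shControl, 2.72 and 2.30 in clone 2, with 2.23 and 2.69 in clone 3. The clones lay above both controls, and their means were nearly equal (2.51 ± 0.30 and 2.46 ± 0.32, SD, n = 2). The log2 fold change was 3.24 (SE 0.59, adjusted p = 0.0131) and 2.09 without shControl replicate 1. Ddx20, the Gemin3 subunit of the SMN complex that loads Sm proteins on small nuclear RNA, read −1.07 and −0.49, then −0.11 and 0.26, then 0.67 and 0.55, a log2 fold change of 1.12 (adjusted p = 0.0292) that did not pass without shControl replicate 1 (0.83, adjusted p = 0.0634). Of 8 other SMN complex genes 2 rose, 3 fell and the other 3 missed the threshold, with Strap (2.28) among the rises and Smn1 itself (−1.32) among the falls. After quantile normalization, and again without shControl replicate 1, 2 of them rose (Strap and Gemin2) and 0 fell. Ddx5 (−0.02) and its close relative Ddx17 (−0.30), coactivators and cofactors of the microRNA enzyme Drosha, were within 0.3 of 0 and above the median gene.

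The mitochondrial helicases moved apart. Ddx28, which helps assemble the large mitochondrial ribosomal subunit, read −4.56 and −2.29 in shControl (the former not well above background), −0.64 and −0.82 in clone 2 and −1.71 and −1.34 in clone 3, so its log2 fold change was 2.30 (SE 0.58, adjusted p = 0.0221), 1.16 without shControl replicate 1 and 0.89 with normexp correction. After quantile normalization it was at 2.55 but did not pass (adjusted p = 0.0579). Dhx30, of mitochondrial RNA granules, read 4.95 and 4.46, then 3.08 and 3.11, then 3.96 and 3.58 on its brightest probe and fell by 1.27 (adjusted p = 0.0206), again not after quantile normalization (−0.52, adjusted p = 0.0976). Its other probe stood at 0.95, and the mean of the probes at −0.16 (adjusted p = 0.662).

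The RNA sensor genes Ddx58 (RIG-I) and Dhx58 (LGP2, its regulator) both fell. Dhx58 read 0.10 and −1.09 in shControl, −2.60 and −3.23 in clone 2 and −2.54 and −1.73 in clone 3. Every array labelled shTug1 was below both controls, and the log2 fold change was −2.03 (SE 0.44, adjusted p = 0.0173), or −1.43 without shControl replicate 1, where the call ended (adjusted p = 0.069). Ddx58 read 5.24 and 4.57, then 3.20 and 2.97, then 3.24 and 3.46, and fell by 1.69 (SE 0.32, adjusted p = 0.0138), and stood at −1.35 without that array. After quantile normalization it passed at −0.91. A second Ddx58 probe, of lower signal, stood at 0.43, and the call ended with the mean of the probes (−0.63, adjusted p = 0.111). Of 12 other genes of the RNA sensing pathway 0 rose, 9 fell and 3 did not pass, with a median of −1.40 (1 and 4 after quantile normalization, 0 and 5 without shControl replicate 1). Isg15 (−2.14) and Oas1a (−1.73) were among the falls, with Oas1a passing under neither alternative, and Ifih1, the MDA5 gene of the same receptor family, fell by 1.78. The 9 falls before these alternatives compare with 30.4% of all genes, and nothing is read from them.

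Among the germ line helicases, Ddx25 was at least 3.28-fold lower on the arrays labelled shTug1, where it was well above background on 0 of 4 arrays, with shControl at −3.42 and −3.82. Its call ended without shControl replicate 1 (adjusted p = 0.0632). Ddx4, the Vasa gene, was well above background on the clone 2 arrays only (−5.03 and −4.98); it passed upward (0.94, adjusted p = 0.0369) but turned with normexp correction (−0.77), and no fold is given. The cohesion DNA helicase gene Ddx11 (0.55), and Ddx59 (0.55), Dhx57 (−0.16), Dhx32 (−0.29) and Dhx40 (−0.74), did not pass. After quantile normalization Ddx11 did (0.94, adjusted p = 0.0454). Outside the Ddx and Dhx names, 3 of 12 related helicases rose, 3 fell and 6 did not pass (3 and 1 after quantile normalization, 2 and 2 without shControl replicate 1). Eif4a3, of the exon junction complex, rose by 3.08 and Skiv2l, of the cytoplasmic exosome's helper complex, by 2.63 (detected on 1 of 2 controls), and the initiation factor gene Eif4a2 fell by 1.58. Skiv2l did not pass without shControl replicate 1, nor Eif4a2 after quantile normalization.

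**Figure D3:**
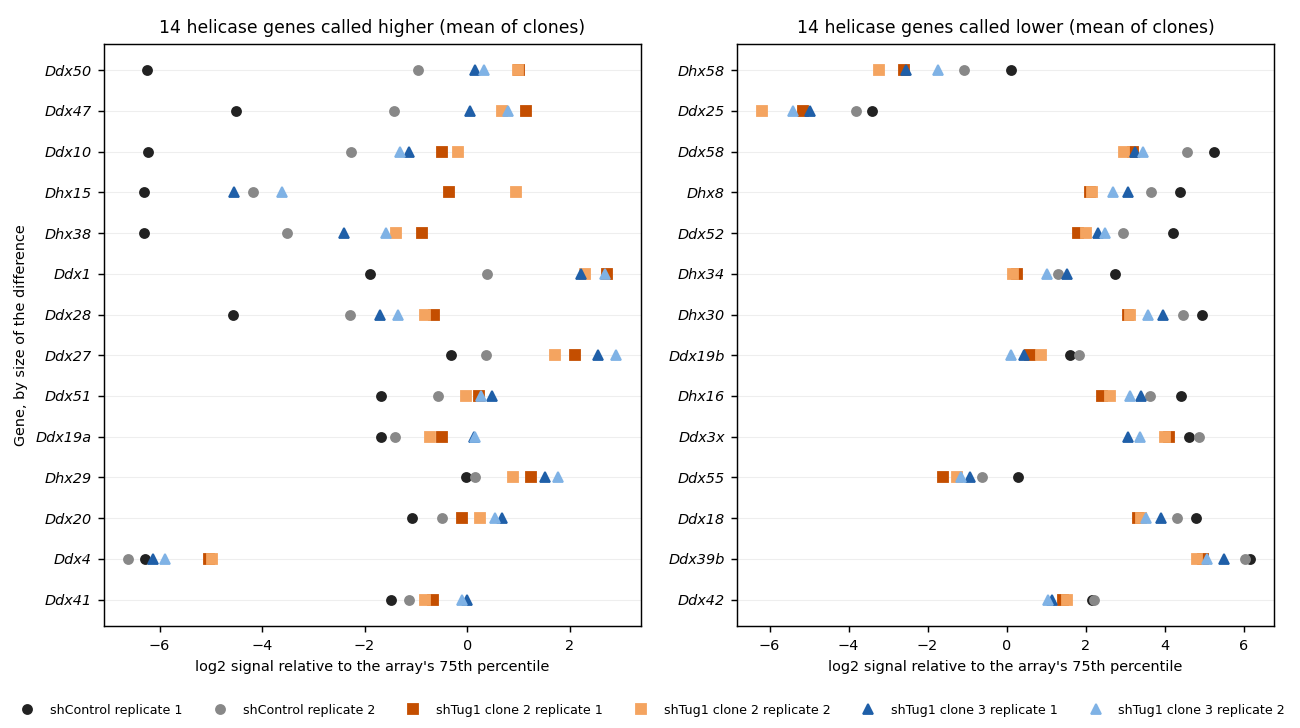
log2 signal relative to the array's 75th percentile on each of the 6 arrays for the 14 helicase genes called higher (left) and the 14 called lower (right). shControl replicate 1 lies far to the left for Ddx50, Ddx47, Ddx10, Dhx15, Dhx38 and Ddx28, while the clone 3 arrays of Dhx15 (−4.55 and −3.61) lie at the level of shControl replicate 2 (−4.18).

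Different probes of a gene often disagreed. Of the 14 genes with more than 1 kept probe, 10 had all of them well above background on all 6 arrays, and in 6 of these 10 the probes went opposite ways. The widest such gaps were those of Dhx30 (−1.27 and 0.95), Ddx58 (−1.69 and 0.43), Ddx3x (−1.12 and 0.66) and Ddx21 (−0.79 and 0.87). For Ddx21 the brightest probe read 3.55 and 2.66 in shControl, 2.09 and 2.05 in clone 2 and 2.56 and 2.54 in clone 3, while the other read −0.14 and 1.69, then 1.80 and 1.61, then 1.40 and 1.76. The replicates of shControl were in opposite order on them. The probes of Ddx18 (both −1.02), Ddx31, Dhx32 and Dhx40 had the same sign.

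**Figure D4:**
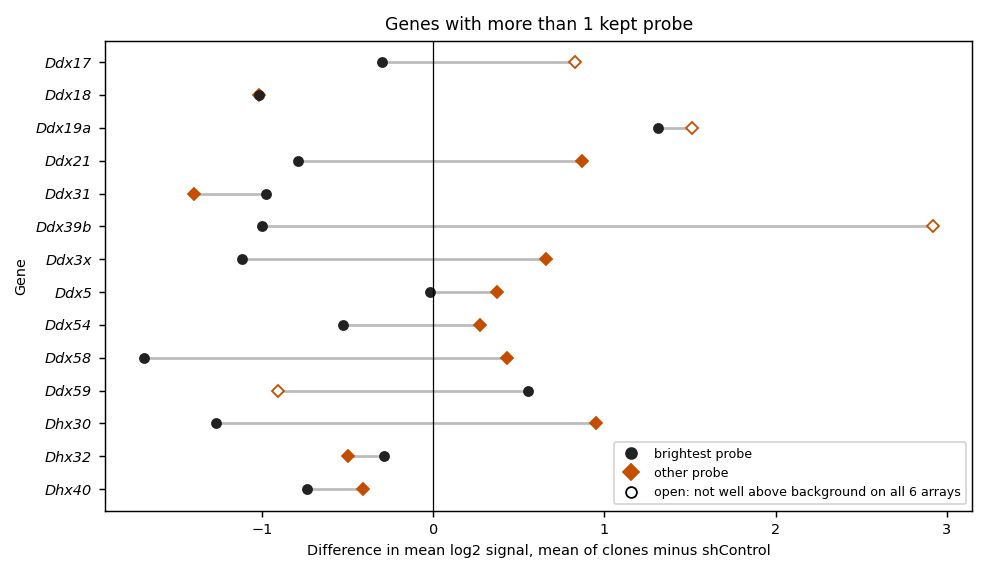
Difference in mean log2 signal between the clones labelled shTug1 and shControl for each kept probe of the 14 helicase genes with more than 1, circles for the brightest probe and diamonds for the other, open where not well above background on all 6 arrays, so that the difference is not exact. Grey lines join probes of a gene; 9 of the 14 lines cross 0, the longest being that of Ddx39b from −1.0 to 2.92.

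The sign also moved with the probe's name series, a feature of the array design. Of 26 kept helicase probes of the A_55 series 5 had a positive and 21 a negative difference (median −0.77), whereas 14 of 21 probes of the A_51 series (median 0.94) and 7 of 10 of the A_52 series (median 0.40) were positive. Over all kept probes the medians were −0.74, −0.30 and 0.05 in the same order. The sign moved with signal level as well. Of 19 helicases with a mean level at or under 0, 11 rose and 3 fell, and of 27 above 0, 3 rose and 11 fell. Their median log2 fold changes were 1.12 and −0.85, against −0.53 and −0.85 for all genes at those levels. The shares of all genes called higher or lower at those levels are not given here, so nothing is read from the counts of calls. The parts of the probe series and of signal level in the helicase values were not tested.

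Each clone against shControl gave fewer calls in clone 3. In clone 2, 11 helicases rose and 15 fell (10.2% and 33.8% of all genes, 44% together), and in clone 3, 4 rose and 3 fell (4.35% and 4.68%, 9.03% together). The clone 3 calls were Ddx1 (3.21), Ddx27 (2.70), Ddx19a (1.69) and Dhx29 (1.58) upward and Ddx58 (−1.55), Ddx3x (−1.53) and Ddx19b (−1.46) downward. In clone 2 the same genes stood at 3.26, 1.88, 0.94, 1.00, −1.82, −0.70 and −0.99, of which Ddx19a (adjusted p = 0.0525) and Ddx3x (adjusted p = 0.117) did not pass. These comparisons share the control arrays.

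The clones were set against each other directly, within 1 scan and without any control array in the difference. The control arrays still enter the spread of the test, which is shared over the groups. Of 46 helicases 0 were higher and 1 lower in clone 3 (0.345% and 0.922% of all genes, 1.27% together). The gene was Dhx15, with a log2 difference of −4.38 (SE 0.75, limma adjusted p = 0.0435), clone 2 reading −0.35 and 0.95 and clone 3 −4.55 and −3.61. The call ended after quantile normalization (adjusted p = 0.204), without shTug1 clone 3 replicate 1 or 2, and with no filter on dim probes (adjusted p = 0.0785), with the difference between −2.99 and −5.03 over all alternatives. Both clone 3 arrays lay above both clone 2 arrays for 29 of the 46 genes and below both for 13 (58.9% and 16.4% of all genes, 75.2% together). The median helicase difference was 0.39 and that of all genes 0.38. The next differences, of Dhx37 (−1.14, adjusted p = 0.276), Ddx54 and Dhx34 (both 1.07, adjusted p = 0.383), did not pass.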

How the data were processed

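RNA of 6 samples was hybridised to 6 one-colour (Cy3) Agilent mouse arrays, and groups and replicates came from the sample titles. The deposited files hold an intensity per spot, background-subtracted and detrended per the file headers (the submitters' processing notes name Agilent Feature Extraction, version 11.0.1.1). A deposited table of log2 values (19819 probes, 47 of them helicase probes) served as an alternative; how it was normalized is not stated in any source used here.

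Values were log2 of the processed intensity minus its array's 75th percentile. Repeat spots of 1 probe were averaged after dropping controls and outlier-marked spots. Accessions were matched without version to RefSeq genes (27234 of 39429 probes). limma 3.58.1 in R 4.3.3 fitted 3 group means over 21473 genes (3 residual and 4.694 prior degrees of freedom), two-sided; p-values were adjusted by Benjamini-Hochberg across them, with calls made under 0.05. An exact test of 4 against 2 arrays cannot go below p = 0.0667. A probe dim on a whole side has only a bound, the mean of the bright side over that of the dim side, each dim array entering at its own signal or at its lowest well-above-background signal, whichever was higher. The model was tested on simulated data with a single spread for all genes and arrays. Those data had no wider shControl pair and no difference between scans, so they say nothing of these. Normexp correction (offset 50) used the median spot and background signals, which the files hold.

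Members and gene lists were chosen with earlier results of these data known. The rule for naming took every member, with values per array for the largest called rises and falls, dim members, members that differed between the clones, the highest control signals and probes in conflict; values per array of Ddx50, Ddx47, Ddx10, Dhx38, Ddx28, Ddx42 and the second probe of Ddx39b were chosen after their values were seen. Precision is limited by having 2 arrays in each group. The alternatives were other normalizations, background correction, filters and probe summaries, the deposited log2 values, a replicate block and leaving out each array.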

Additional observations from a re-analysis of the deposited data

Results flagged for a closer look

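Dhx15 differed between the clones labelled shTug1: clone 3 lay lower than clone 2 by a log2 difference of −4.38 (limma adjusted p = 0.0435), and this test of the difference itself drew attention to it. Against shControl it stood at 5.54 in clone 2 and 1.16 in clone 3. Its probe was well above background on 5 of 6 arrays and is the only Dhx15 probe among the members.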

How the results depend on the processing

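Of 46 helicases tested, 28 were called in the mean of the clones (40.6% of all genes), 26 in clone 2 (44%) and 7 in clone 3 (9.03%). The deposited values and the filter for probes on all 6 arrays hold 37 of the helicases, and no filter 51, so part of a changed count can be genes not tested. For the mean of the clones 17 of 46 were called after quantile normalization (27.1% of all genes) and 12 of 37 with the deposited values (31.4%). In clone 2 these were 12 (26.8%) and 9 (31.8%). In clone 3, 17 of 46 were called with normexp correction (31.9%), 1 of 51 with no filter on dim probes (1.9%) and 12 of 37 with probes on all 6 arrays (17.4%). Between the clones the call of Dhx15 was lost after quantile normalization (0 of 46) and with no filter (0 of 51); the 0 of 37 with the deposited values and with probes on all 6 arrays says nothing of it, since Dhx15 is not in those sets. The median of the helicases moved under scaling and probe choice. For the mean of the clones it was 0.02 (quantile), −0.19 (median centring), −0.38 (normexp), −0.12 (deposited values), −0.59 (probes on all 6 arrays) and −0.14 (mean of probes). For clone 2 it was 0.17 (quantile), −0.29 (median centring), −0.06 (deposited), −0.71 (probes on all 6 arrays) and −0.05 (mean of probes). For clone 3 it was 0.02 (quantile), −0.14 (median centring), −0.11 (deposited), −0.45 (no filter), −0.52 (probes on all 6 arrays) and 0.03 (mean of probes). Between the clones it was 0.19 (quantile), 0.23 (deposited) and 0.30 (mean of probes). Leaving out each array gave 0 to 37 calls for the mean of the clones, 11 to 37 for clone 2, 0 to 31 for clone 3 and 0 to 1 between the clones, with medians of −0.38 to −0.23, −0.53 to −0.38, −0.25 to −0.10 and 0.30 to 0.46. Of 24 named results, 1 changed direction: Ddx4 with normexp correction (−0.77). The calls ended for 24 of 24 without shTug1 clone 3 replicate 2 and for 19 without replicate 1; the cause was not tested. Same-numbered samples did not deviate together (correlations −0.0380, 0.106 and −0.0888), and with the replicate number as a block 26, 24, 10 and 1 helicases were called in the 4 comparisons. The shares of all genes called with that block are not given here, so nothing is read from these counts.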
